A study of Mus musculus with 24 samples.

Results

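The 10 genes described here act in or respond to glucocorticoid signalling in liver: the receptor gene Nr3c1, the receptor targets Fkbp5, Tsc22d3, Sgk1, Zbtb16 and Klf9, the CCAAT/enhancer-binding protein genes Cebpb and Cebpd, and the metallothionein genes Mt1 and Mt2. They were taken as the rows of the liver count table with these symbols. All 10 were among the 22355 genes of the table and among the 11508 that passed the filter on low counts. RNA was sequenced from livers of 24 diet-induced obese mice in 3 groups of 8. One group had received IUB288 for 4 d and was taken 4 h after the last injection, a second had the same treatment and was taken 22 h after it, and the third had received vehicle and was taken 22 h after the last injection. IUB288 acts as an agonist of the glucagon receptor and goes here by its code name. No vehicle livers were taken at 4 h, so at that time the effect of IUB288 and the time since injection or hour of day cannot be told apart. The values come from whole liver, where fewer cells of a type and less RNA per cell cannot be told apart.

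Glucocorticoids enter the cell and bind the receptor encoded by Nr3c1, which is held ready by heat shock protein 90 and its co-chaperones, moves to the nucleus and binds DNA as a pair at glucocorticoid response elements. In liver the receptor acts with C/EBP factors on genes of fasting, amino acid breakdown and the acute phase response, and it shares many of these genes with the cAMP pathway, which glucagon switches on. Metallothioneins are small metal-binding proteins induced by zinc through the factor MTF1 and also by glucocorticoids.

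Library totals ran from 24.7 to 35.2 M counts at 4 h, from 25.8 to 35.2 M at 22 h and from 14 to 44.1 M in vehicle livers. Hepatocyte markers were high in every library, with Alb, the serum albumin gene, at 34800 CPM (counts per M counts, with TMM scaling) or more. Vehicle replicate 1 stood apart. Its summed level of 7 brown and white fat markers was 4340 CPM, against at most 105 CPM in the other vehicle livers. Ucp1, the uncoupling protein of brown fat, was at 1390 CPM there, where no other library exceeded 0.576 CPM and 10 were at 0. That library also had the highest vehicle sums of neutrophil (64.5 CPM), T, NK and B cell (55.9 CPM), endothelial (620 CPM) and stellate markers (1490 CPM). At 22 h all 10 endothelial markers, 10 of 11 stellate markers and 7 of 11 Kupffer cell markers were lower than in vehicle livers by the gene test given below, against 4 of 10, 7 of 11 and 3 of 11 at 4 h. Of the other marker lists, neutrophil genes were called in no comparison of either time with vehicle (0 of 4), T, NK and B cell genes were lower for 4 of 12 at each time, cholangiocyte genes for 2 of 6 at each time, and 4 of 5 erythroid genes were lower and 1 higher at each time. Of 3 fat markers tested 1 was higher and 1 lower at 4 h, and 2 were lower at 22 h. Of 7 hepatocyte markers 2 were higher and 4 lower at 4 h, and 3 were higher and 3 lower at 22 h. Beside these marker counts, 21.7% of all genes tested were higher and 22.5% lower at 4 h, and 17.6% higher and 19.2% lower at 22 h. The part of these markers in the results for the 10 genes was not tested. Values without vehicle replicate 1 are given for Cebpb, Cebpd, Mt1 and Mt2 and for 3 gene lists.

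Promoter sequences are shown for Sgk1, the gene with the largest change, for Cebpb, whose 22 h and 4 h livers did not overlap, and for Mt1 and Mt2, which varied together from liver to liver. RefSeq windows on GRCm38.p6, 250 bases before to 50 bases after an annotated start, were found for 7 of the 10 genes, 14 windows in all. Nr3c1, Zbtb16 and Cebpd are named without a window. Motifs were searched on both strands in all 32851 windows of 300 bases. Capitals mark the glucocorticoid response element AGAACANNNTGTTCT in Sgk1, the cAMP response element core TGACG in either orientation in Cebpb, and the metal response core TGCACNC in Mt1 and Mt2. The form TGCGCNC counted as a metal response core as well.
Sgk1, chr10:21993640-21993939, plus strand: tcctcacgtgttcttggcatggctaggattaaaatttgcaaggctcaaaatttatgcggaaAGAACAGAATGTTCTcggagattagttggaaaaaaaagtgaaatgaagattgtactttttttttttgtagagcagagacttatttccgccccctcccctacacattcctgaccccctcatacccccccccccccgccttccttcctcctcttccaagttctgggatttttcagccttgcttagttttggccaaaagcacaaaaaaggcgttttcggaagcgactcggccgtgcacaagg
Cebpb, chr2:167688665-167688964, plus strand: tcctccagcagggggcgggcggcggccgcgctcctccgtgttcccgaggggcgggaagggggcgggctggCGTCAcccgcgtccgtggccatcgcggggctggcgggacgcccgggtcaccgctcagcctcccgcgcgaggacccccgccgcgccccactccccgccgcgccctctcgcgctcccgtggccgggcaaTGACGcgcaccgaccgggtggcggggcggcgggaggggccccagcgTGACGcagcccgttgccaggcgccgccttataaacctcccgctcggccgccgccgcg
Mt1, chr8:94178839-94179138, plus strand: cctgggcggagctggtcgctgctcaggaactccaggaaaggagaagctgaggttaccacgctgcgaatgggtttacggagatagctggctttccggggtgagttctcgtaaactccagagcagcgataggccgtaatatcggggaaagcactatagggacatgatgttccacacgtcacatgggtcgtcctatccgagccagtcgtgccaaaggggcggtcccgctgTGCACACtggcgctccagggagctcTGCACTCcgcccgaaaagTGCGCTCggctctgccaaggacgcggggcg
Mt2, chr8:94172368-94172667, plus strand: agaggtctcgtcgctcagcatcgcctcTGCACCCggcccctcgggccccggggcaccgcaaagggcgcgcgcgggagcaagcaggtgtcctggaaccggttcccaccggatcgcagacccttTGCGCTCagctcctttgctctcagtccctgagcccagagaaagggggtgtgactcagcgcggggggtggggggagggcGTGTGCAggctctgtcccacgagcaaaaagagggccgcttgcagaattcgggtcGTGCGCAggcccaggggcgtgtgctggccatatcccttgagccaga

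The full palindrome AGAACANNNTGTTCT was found in 3 of the 32851 windows (0.00913%), and 1 of these was the Sgk1 window, 1 of 6 for this gene, where it read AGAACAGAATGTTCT and began 189 bases before the annotated start. That start lay 776 bases from the nearest Sgk1 start marked as principal in GENCODE. The single hexamer AGAACA, which overlaps the palindrome, was in 19.0% of all windows. The Sgk1 window at the principal start held neither the palindrome nor the hexamer. The Cebpb window held the core TGACG 3 times, and a core was in 20.8% of windows. Windows of Tsc22d3, Sgk1, Klf9 and Mt1 held this core as well. The longer TGACGTCA, which contains the core, was in 1.79% of windows and not in those letters in any window of the 10 genes. The metal response core occurred 3 times in the Mt1 window and 4 times in the Mt2 window. It occurred at least once in 25.7% of all windows, that of Sgk1 at the principal start included. Shares of windows with 3 or 4 copies were not computed. The Mt2 window also held 1 C/EBP site of the form TTGCNNAA, as TTGCAGAA, a form found in 10.8% of windows. These matches describe letters in the window, not bound sites.

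**Figure D1:**
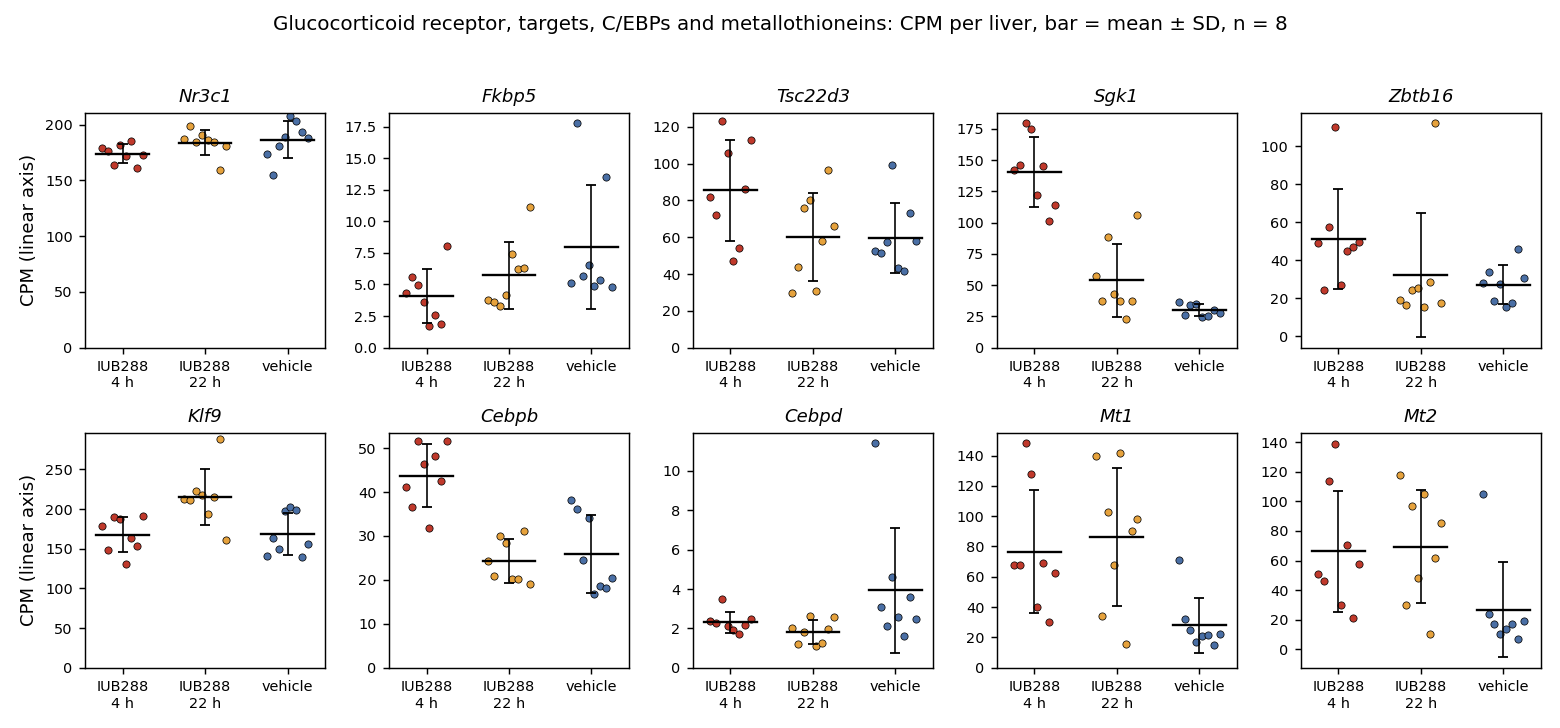
CPM on linear axes in each liver for the 10 genes, with groups left to right IUB288 4 h, IUB288 22 h and vehicle (8 livers each), points for livers, a line for the mean and bars for the SD. The 8 Sgk1 values at 4 h (101 to 180 CPM) lie above all 8 vehicle values (24.6 to 36.3 CPM), while Nr3c1 values lie between 155 and 208 CPM in all groups.

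By limma-voom with Benjamini-Hochberg adjustment over the 11508 genes (a gene is called at an adjusted p under 0.05), 5 of the 10 genes were higher and 1 was lower at 4 h than in vehicle livers. At 22 h 4 were higher and 1 lower than in vehicle livers. In the direct comparison of 22 h with 4 h, 1 was higher and 3 were lower. Over all genes tested, 44.2% were called at 4 h against vehicle (21.7% higher, 22.5% lower), 36.8% at 22 h against vehicle (17.6% higher, 19.2% lower) and 29.3% at 22 h against 4 h (14.3% higher, 15% lower). With this background the counts describe the 10 genes and are not read as a result about them as a group. The 8 vehicle livers were the same in the 4 h and the 22 h comparison.

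**Figure D2:**
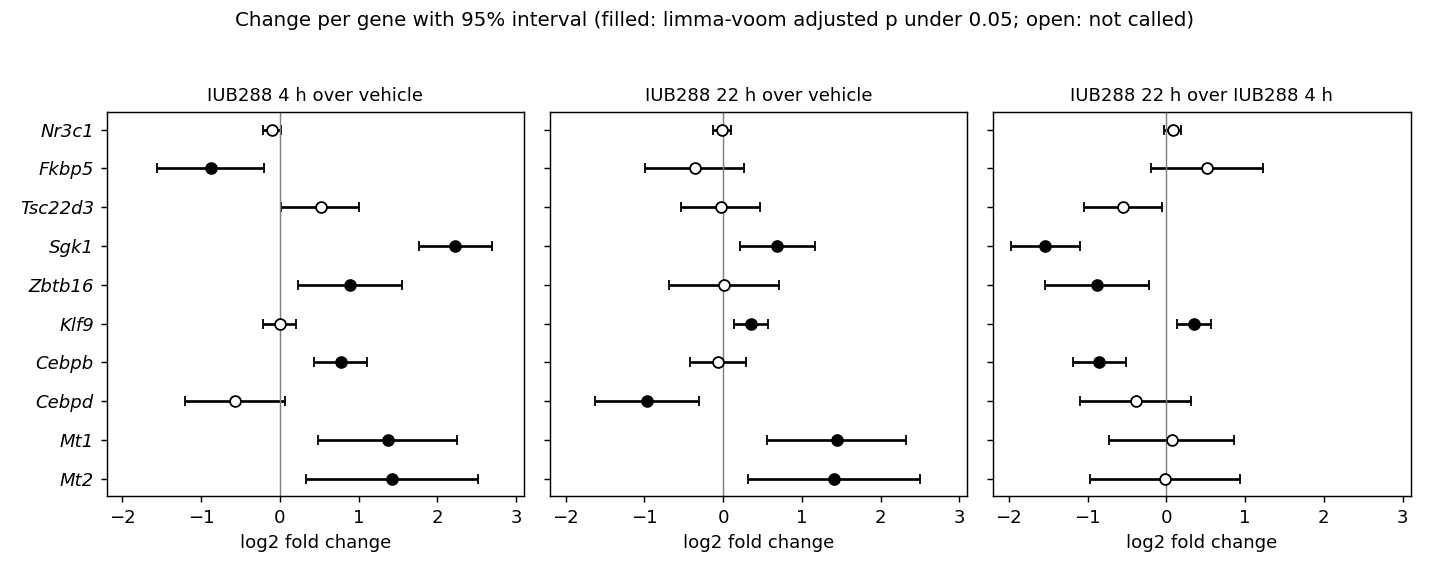
Log2 fold change of each gene with its 95% interval in the comparisons of IUB288 4 h with vehicle, IUB288 22 h with vehicle and IUB288 22 h with IUB288 4 h (8 livers each), filled where the limma-voom adjusted p was under 0.05. Sgk1 has the largest change at 4 h (2.23), and Mt1 and Mt2 have nearly equal changes of 1.37 to 1.44 at either time.

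Nr3c1 (Entrez 14815), the receptor gene, varied least of the 10 genes in each group. Its levels ran from 161 to 185 CPM at 4 h (median 174), from 159 to 199 CPM at 22 h (median 185) and from 155 to 208 CPM in vehicle livers (median 188). The coefficient of variation was 4.73% at 4 h, 6.24% at 22 h and 8.99% in vehicle livers, and the 3 groups overlapped. The log2 fold change was -0.10 ± 0.05 at 4 h (standard error; 95% interval -0.21 to 0.02; limma-voom adjusted p = 0.154) and -0.02 at 22 h (-0.13 to 0.10; limma-voom adjusted p = 0.833). All 8 livers at 4 h lay below the vehicle mean on the log2 scale, on which livers are counted throughout, and the 4 h difference was called without vehicle replicate 2 (limma-voom adjusted p = 0.0292), the lowest vehicle liver at 155 CPM. It was also called with a filter of 1 CPM in 8 libraries (-0.13, limma-voom adjusted p = 0.0458) and with sample quality weights (-0.14, limma-voom adjusted p = 0.0104). In replicates 5 to 8 alone it was -0.20 and called (limma-voom adjusted p = 0.0463), and in replicates 1 to 4 alone it was -0.01 (limma-voom adjusted p = 0.926). At 22 h against 4 h the change was 0.08 (limma-voom adjusted p = 0.298).

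Fkbp5 (Entrez 14229, 17:28398753-28486149 on GRCm38.p6) encodes a co-chaperone that lowers the hormone affinity of the receptor and is itself induced by it. Its levels were low, from 1.73 to 8.04 CPM at 4 h (median 4.00), from 3.31 to 11.1 CPM at 22 h (median 5.19) and from 4.83 to 17.8 CPM in vehicle livers (median 5.49). In vehicle livers, replicates 2 (17.8 CPM) and 7 (13.5 CPM) were well above the others, which reached 6.51 CPM. Fkbp5 fell at 4 h, by 0.88 ± 0.33 on the log2 scale (0.543-fold; limma-voom adjusted p = 0.0336; 7 of 8 livers below the vehicle mean). That call was lost on leaving out vehicle replicate 2 (-0.66, limma-voom adjusted p = 0.0727) or 7, or 4 h replicate 5, 6 or 7, with adjusted p between 0.0516 and 0.0836. The changes of -0.36 at 22 h against vehicle and 0.52 at 22 h against 4 h were not called (limma-voom adjusted p = 0.376 and 0.283). Livers at 22 h fell apart by replicate number: replicates 5 to 8 averaged 7.76 ± 2.28 CPM and replicates 1 to 4 averaged 3.71 ± 0.346 CPM (SD, n = 4 each), without overlap. In replicates 5 to 8 alone the 22 h against 4 h change was 1.42 (limma-voom adjusted p = 0.0273), and in replicates 1 to 4 alone it was -0.31 (limma-voom adjusted p = 0.741). The 4 h change against vehicle was -0.73 in replicates 1 to 4 alone and -1.04 in replicates 5 to 8 alone. Neither was called (limma-voom adjusted p = 0.154 and 0.0843).

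Tsc22d3 (Entrez 14605, X:140539528-140600522), which encodes the glucocorticoid-induced leucine zipper protein GILZ, an inhibitor of inflammatory signalling, ran from 47.1 to 123 CPM at 4 h (median 84.1), from 29.9 to 96.7 CPM at 22 h (median 62.1) and from 41.5 to 99.2 CPM in vehicle livers (median 54.9). The groups overlapped, and 6 of 8 livers at 4 h lay above the vehicle mean. The log2 fold change at 4 h was 0.52 ± 0.24 (95% interval 0.02 to 1.01; limma-voom adjusted p = 0.0814), at 22 h -0.03 (limma-voom adjusted p = 0.928) and at 22 h against 4 h -0.55 (limma-voom adjusted p = 0.0857). The 4 h difference was called without vehicle replicate 4, the highest vehicle liver, or 4 h replicate 5, the lowest at 4 h (limma-voom adjusted p = 0.034 each), and with the 16 libraries of the comparison alone (limma-voom adjusted p = 0.0497). The 22 h against 4 h difference was called without 4 h replicate 5 or 22 h replicate 7 (limma-voom adjusted p between 0.0366 and 0.0401).

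Sgk1 (Entrez 20393, 10:21882184-21999903), the serum and glucocorticoid regulated kinase, which acts on ion channels and transporters, had the largest change of the 10 genes. It ran from 101 to 180 CPM at 4 h (median 143), from 22.6 to 106 CPM at 22 h (median 40.2) and from 24.6 to 36.3 CPM in vehicle livers (median 29.1). Every liver at 4 h was above every vehicle liver, as for 9.91% of all genes tested. At 22 h 7 of 8 livers were above the vehicle range, replicates 8 (106 CPM) and 3 (88.4 CPM) farthest, while replicate 6 (22.6 CPM) was below it. Sgk1 rose 4.69-fold at 4 h (2.23 ± 0.22 log2 units; limma-voom adjusted p = 1.21e-08) and 1.62-fold at 22 h (0.69 ± 0.23; limma-voom adjusted p = 0.0201; 7 of 8 livers). It was lower at 22 h than at 4 h (-1.54 ± 0.21; limma-voom adjusted p = 3.04e-06). These 3 calls were kept on leaving out any single library. In replicates 1 to 4 and 5 to 8 alone the 4 h changes were 2.28 and 2.17, and the 22 h changes were 0.71 and 0.69, not called with 4 livers a group (limma-voom adjusted p = 0.0614 and 0.156).

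Zbtb16 (Entrez 235320, 9:48651797-48836225) encodes the zinc finger repressor PLZF, known as strongly induced by glucocorticoids in human cells. It ran from 24.2 to 110 CPM at 4 h (median 48), from 15.3 to 112 CPM at 22 h (median 21.6) and from 15.3 to 46 CPM in vehicle livers (median 27.8). A single liver, replicate 7, held the 22 h maximum, and the next was at 28.4 CPM. Zbtb16 rose at 4 h by 0.89 ± 0.32 log2 units (1.85-fold; limma-voom adjusted p = 0.0269; 7 of 8 livers) and was lower at 22 h than at 4 h (-0.88 ± 0.32; limma-voom adjusted p = 0.0404; 7 of 8 livers). At 22 h it did not differ detectably from vehicle (0.01, 95% interval -0.69 to 0.71; limma-voom adjusted p = 0.986). The 4 h difference missed the threshold on leaving out vehicle replicate 5, vehicle replicate 6 or 4 h replicate 4 (limma-voom adjusted p between 0.0553 and 0.0634). That difference was 0.93 in replicates 1 to 4 alone and 0.85 in replicates 5 to 8 alone. Neither was called (limma-voom adjusted p = 0.079 and 0.241). The 22 h against 4 h call was lost without any 1 of 13 libraries, which were all of that comparison but 4 h replicates 2 and 5 and 22 h replicate 7 (limma-voom adjusted p between 0.0508 and 0.087). It was also lost with no filter on low counts (-0.85, limma-voom adjusted p = 0.0755) and with the 16 libraries compared alone (-0.86, limma-voom adjusted p = 0.0664). Without 22 h replicate 7 that change was -1.16. In replicates 1 to 4 alone it was -1.29 (limma-voom adjusted p = 0.0391) and in replicates 5 to 8 alone -0.43 (limma-voom adjusted p = 0.573).

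Klf9 (Entrez 16601, 19:23141226-23168129), a Krüppel-like factor that answers to glucocorticoids and thyroid hormone, changed at 22 h and not detectably at 4 h. It ran from 131 to 191 CPM at 4 h (median 171), from 161 to 288 CPM at 22 h (median 214) and from 139 to 202 CPM in vehicle livers (median 160). Klf9 was higher at 22 h than in vehicle livers by 0.35 ± 0.10 log2 units (1.28-fold; limma-voom adjusted p = 0.0105; 7 of 8 livers) and than at 4 h by the same 0.35 ± 0.10 (limma-voom adjusted p = 0.0114; 7 of 8 livers). At 4 h its change was 0.00 (95% interval -0.22 to 0.21; limma-voom adjusted p = 0.989). Both calls held on leaving out any single library, replicate 7, the highest 22 h liver at 288 CPM, included. With 4 livers a group, the 22 h change against vehicle was 0.42 in replicates 1 to 4 (limma-voom adjusted p = 0.035) and 0.30 and not called in replicates 5 to 8 (limma-voom adjusted p = 0.23). The change against 4 h was 0.32 and 0.42 there, called in neither (limma-voom adjusted p = 0.089 and 0.104). Replicate 8 at 161 CPM was the only 22 h liver under the vehicle mean.

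Cebpb (Entrez 12608, 2:167688915-167690432) encodes a bZIP factor of gluconeogenesis and the acute phase response that is also induced by cAMP, and the 3 TGACG cores of its printed window are given above. It ran from 31.7 to 51.7 CPM at 4 h (median 44.4), from 19.0 to 31.1 CPM at 22 h (median 22.6) and from 16.8 to 38.2 CPM in vehicle livers (median 22.5). All 22 h livers were below all 4 h livers, as for 5.98% of all genes tested. Cebpb rose 1.72-fold at 4 h (0.78 ± 0.16 log2 units; limma-voom adjusted p = 0.000358; 8 of 8 livers) and was lower at 22 h than at 4 h (-0.85 ± 0.16; limma-voom adjusted p = 0.000226). At 22 h the change against vehicle was -0.07 (95% interval -0.42 to 0.29; limma-voom adjusted p = 0.791). On leaving out vehicle replicate 1 it was 0.04 (limma-voom adjusted p = 0.87). The vehicle livers fell apart by number, with 33.3 ± 6.03 CPM in replicates 1 to 4 and 18.5 ± 1.48 CPM in replicates 5 to 8 (SD, n = 4 each), without overlap. The 4 h change was 0.37 in replicates 1 to 4 alone (limma-voom adjusted p = 0.0911) and 1.21 in replicates 5 to 8 alone (limma-voom adjusted p = 0.000258). The labels number the mice in these runs without naming them as batches. With a term for them the 4 h change was 0.76 (limma-voom adjusted p = 0.000168).

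Cebpd (Entrez 12609, 16:15887286-15889545), a C/EBP of inflammation and of early fat cell formation, was at low levels and was called lower at 22 h only against vehicle. It ran from 1.70 to 3.50 CPM at 4 h (median 2.22), from 1.13 to 2.62 CPM at 22 h (median 1.89) and from 1.64 to 11.4 CPM in vehicle livers (median 2.82). The vehicle maximum was replicate 1, the library with fat markers, and the next vehicle liver was at 4.61 CPM. Cebpd fell at 22 h, to 0.513-fold of vehicle (-0.96 ± 0.32 log2 units; limma-voom adjusted p = 0.0209; 8 of 8 livers), and its change at 4 h of -0.57 ± 0.31 was not called (limma-voom adjusted p = 0.133). Without vehicle replicate 1 the 22 h change was -0.63 and stayed called (limma-voom adjusted p = 0.0272), and the 4 h change was -0.23 (limma-voom adjusted p = 0.378). Without vehicle replicate 6, the lowest vehicle liver, the 4 h change was called (limma-voom adjusted p = 0.0495). The 22 h call was lost with sample quality weights (-0.56, limma-voom adjusted p = 0.083) and with the 16 libraries of the comparison alone (-0.96, limma-voom adjusted p = 0.0522). With 4 livers a group, the 22 h change was -1.36 in replicates 1 to 4 and -0.54 in replicates 5 to 8. Neither was called (limma-voom adjusted p = 0.0937 and 0.187). The 22 h against 4 h change was -0.39 (limma-voom adjusted p = 0.425).

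**Figure D3:**
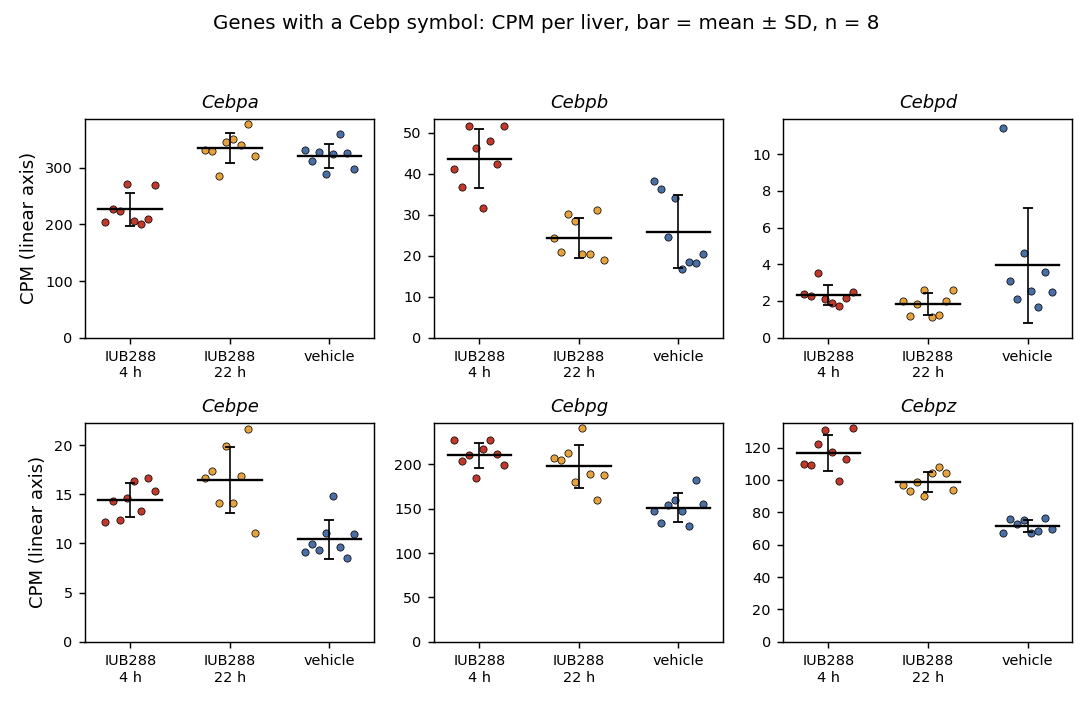
CPM on linear axes per liver of the 6 genes with a Cebp symbol, groups left to right IUB288 4 h, IUB288 22 h and vehicle (8 livers each), with mean lines and SD bars. Cebpb (31.7 to 51.7 CPM) is high at 4 h where Cebpa (200 to 272 CPM) is low, and vehicle replicate 1 is the single high Cebpd point at 11.4 CPM.

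Among 10 other C/EBP and partner bZIP genes, 8 were higher, 1 was lower and 1 was not called at 4 h, and 7 were higher, none was lower and 3 were not called at 22 h. The lower one was Cebpa, the main C/EBP of resting hepatocytes, which ran from 200 to 272 CPM at 4 h (median 217), from 285 to 378 CPM at 22 h (median 336) and from 289 to 360 CPM in vehicle livers (median 326). Its log2 fold change was -0.51 ± 0.07 at 4 h (limma-voom adjusted p = 1.24e-06), 0.06 at 22 h (limma-voom adjusted p = 0.505) and 0.57 ± 0.07 at 22 h against 4 h (limma-voom adjusted p = 3.77e-07). Cebpa and Cebpb therefore had opposite signs at 4 h and in the direct comparison of times. Atf5, a factor of the integrated stress response, averaged 473 ± 25 CPM at 4 h, 819 ± 180 CPM at 22 h and 203 ± 31.0 CPM in vehicle livers (SD, n = 8 each; log2 fold changes 1.23 and 1.99; limma-voom adjusted p = 1.42e-09 and 4.12e-12). Nfil3, a bZIP repressor of clock-controlled genes, averaged 50.8 ± 5.80 CPM at 4 h and 14.3 ± 3.91 CPM in vehicle livers (1.84; limma-voom adjusted p = 1.1e-09). Ddit3, the stress factor CHOP, averaged 17.3 ± 5.76 CPM at 22 h and 6.58 ± 1.67 CPM in vehicle livers (1.32; limma-voom adjusted p = 0.000157). Cebpz, a CCAAT-binding factor that is no bZIP protein, rose by 0.70 at 4 h and 0.47 at 22 h (limma-voom adjusted p = 2.95e-10 and 8.06e-07). At 22 h against 4 h, 2 of the 10 were higher, 3 lower and 5 not called. The count lower at 4 h was 2 without 22 h replicate 8. The list median was 0.77 at 4 h and 0.48 at 22 h, beside -0.07 and -0.02 over all genes. Of all genes tested, 44.2% were called at 4 h, 36.8% at 22 h and 29.3% at 22 h against 4 h.

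Mt1 (Entrez 17748, 8:94178883-94180327) and Mt2 (Entrez 17750, 8:94172618-94173567) are neighbours, 5315 bases apart with no RefSeq gene between them. Mt1 ran from 30.2 to 148 CPM at 4 h (median 67.9), from 16 to 142 CPM at 22 h (median 94.1) and from 15.3 to 71.1 CPM in vehicle livers (median 21.7). Mt2 ran from 21.5 to 139 CPM at 4 h (median 54.4), from 10.1 to 118 CPM at 22 h (median 73.8) and from 7.35 to 105 CPM in vehicle livers (median 17.2). For both genes the vehicle maximum was replicate 1, the library with fat markers, and the next vehicle livers were at 32 CPM for Mt1 and 24.1 CPM for Mt2. At 22 h replicate 6 was low for both, with 16 and 10.1 CPM, inside the vehicle range. Mt1 rose 2.59-fold at 4 h (1.37 ± 0.43 log2 units; limma-voom adjusted p = 0.0113; 8 of 8 livers) and 2.72-fold at 22 h (1.44 ± 0.43; limma-voom adjusted p = 0.0102; 7 of 8 livers). Mt2 rose 2.68-fold at 4 h (1.42 ± 0.53; limma-voom adjusted p = 0.0327; 8 of 8 livers) and 2.65-fold at 22 h (1.41 ± 0.53; limma-voom adjusted p = 0.0402; 7 of 8 livers).

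Without vehicle replicate 1 the rises were larger, 3.1-fold and 3.25-fold for Mt1 and 3.61-fold and 3.58-fold for Mt2 at 4 h and 22 h (limma-voom adjusted p = 0.00366, 0.00364, 0.00602 and 0.00843). The Mt1 calls held on leaving out any single library. The Mt2 rise at 4 h missed the threshold on leaving out any 1 of vehicle replicates 4 to 8 and 4 h replicates 3, 4 and 6 (limma-voom adjusted p between 0.0502 and 0.0654). The Mt2 call at 22 h was lost without any 1 of vehicle replicates 2 to 8 or 22 h replicates 1, 3, 5, 7 and 8 (limma-voom adjusted p between 0.0542 and 0.0748). It was also lost with no filter on low counts (limma-voom adjusted p = 0.051) and with the 16 libraries compared alone (limma-voom adjusted p = 0.0545). With 4 livers a group, in replicates 1 to 4 and 5 to 8, the Mt1 changes were 1.55 and 1.23 at 4 h (limma-voom adjusted p = 0.0345 and 0.149) and 1.21 and 1.72 at 22 h (limma-voom adjusted p = 0.128 and 0.0466). The Mt2 changes there were 1.44 and 1.46 at 4 h and 1.16 and 1.72 at 22 h. None of these Mt2 changes was called (limma-voom adjusted p = 0.124, 0.164, 0.27 and 0.1). Between 22 h and 4 h the changes were 0.07 for Mt1 (95% interval -0.73 to 0.86; limma-voom adjusted p = 0.919) and -0.02 for Mt2 (-0.97 to 0.94; limma-voom adjusted p = 0.984). The tool that counted reads was not given in the sources used here, so how reads shared by these related genes were assigned is uncertain.

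**Figure D4:**
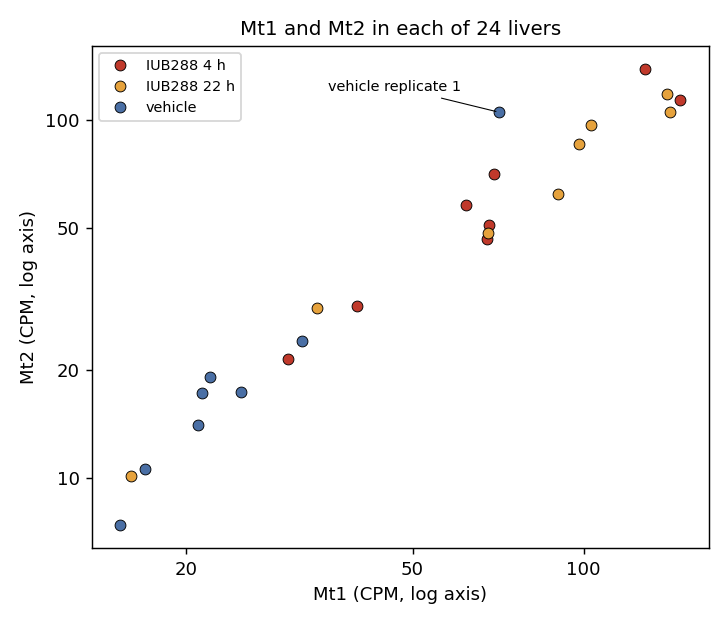
Mt2 against Mt1 in each of the 24 livers, in CPM on log axes, coloured by group (IUB288 4 h, IUB288 22 h, vehicle). The genes increase together in every group, and vehicle replicate 1 (71.1 CPM for Mt1, 105 CPM for Mt2) lies within the range of the treated livers and has the lowest ratio of Mt1 to Mt2.

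Within each group of 8 livers, 8 pairs of the 10 genes were correlated on log2 CPM, 24 correlations in all with exact permutation p adjusted over them. Mt1 and Mt2 correlated in every group: Pearson's r was 0.97 at 4 h, 0.99 at 22 h and 0.98 in vehicle livers (n = 8 each; exact permutation p = 0.00141, 4.96e-05 and 0.000174; adjusted 0.0113, 0.00119 and 0.00208). Spearman's rho was 0.90, 0.98 and 0.98 (exact permutation p = 0.00456, 0.000397 and 0.000397; adjusted 0.0365, 0.00476 and 0.00476). Without the 2 livers farthest from the median of Mt1, r was 0.96, 0.94 and 0.93. The ratio of Mt1 to Mt2 CPM ran from 0.919 to 1.46 at 4 h (median 1.31), from 1.06 to 1.58 at 22 h (median 1.27) and from 0.675 to 2.09 in vehicle livers (median 1.39), lowest in vehicle replicate 1. None of the other 21 correlations passed adjustment. Cebpb and Cebpd in vehicle livers had r = 0.67 and rho = 0.48 (n = 8; exact permutation p = 0.0495 and 0.243; adjusted 0.297 and 0.718), and r = 0.53 without the 2 livers farthest from the median. Fkbp5 had r from -0.44 to 0.68 with Tsc22d3, Sgk1, Zbtb16 and Klf9 in the 3 groups, with adjusted exact permutation p of 0.303 or more (n = 8 each).

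Of 8 zinc handling genes tested beside the metallothioneins, 3 were higher and none lower at 4 h (1 lower without vehicle replicate 2), and 5 were higher and 1 lower at 22 h. Of all genes tested, 44.2% were called at 4 h, 36.8% at 22 h and 29.3% at 22 h against 4 h. The counts are not read as a result about zinc handling. Mtf1, the metal-responsive factor that binds metal response elements, averaged 57.4 ± 3.95 CPM at 4 h, 43.4 ± 2.28 CPM at 22 h and 41.3 ± 3.73 CPM in vehicle livers (SD, n = 8 each; 0.49 log2 units at 4 h, limma-voom adjusted p = 9.57e-08). At 22 h against 4 h Mtf1 was lower (-0.40; limma-voom adjusted p = 2.51e-06), and 3 of the 8 genes were higher and 2 lower. Slc39a14, an importer of zinc and iron, rose by 0.28 at 4 h and 0.31 at 22 h (limma-voom adjusted p = 0.013 and 0.00797). Slc30a1, the zinc exporter that MTF1 also regulates, rose by 0.26 at 4 h (limma-voom adjusted p = 0.00867). The importer gene Slc39a10 fell at 22 h, to 6.58 ± 1.01 CPM against 12.6 ± 1.75 CPM in vehicle livers (SD, n = 8 each; -0.93; limma-voom adjusted p = 3.59e-07).

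Upstream of the receptor, 16 genes of its partners and of steroid supply were tested, and 10 were higher and 2 lower at 4 h, 11 higher and 1 lower at 22 h, and 4 higher and 4 lower at 22 h against 4 h. The count lower at 4 h was 4 with sample quality weights. Beside these counts, 44.2% of all genes tested were called at 4 h, 36.8% at 22 h and 29.3% at 22 h against 4 h. They are not read as a result about partners or steroid supply. Serpina6, which encodes the corticosteroid-binding globulin of blood, ran from 401 to 717 CPM at 4 h (median 486), from 560 to 1130 CPM at 22 h (median 860) and from 194 to 405 CPM in vehicle livers (median 275). It rose at 4 h (0.93 ± 0.15; limma-voom adjusted p = 1.92e-05) and at 22 h (1.66 ± 0.15; limma-voom adjusted p = 1.26e-08). Nr3c2, the related mineralocorticoid receptor, which also binds glucocorticoids, averaged 21.8 ± 3.87 CPM at 4 h, 43 ± 4.55 CPM at 22 h and 41.0 ± 5.88 CPM in vehicle livers (SD, n = 8 each; -0.92 at 4 h, limma-voom adjusted p = 4.38e-08; 0.98 at 22 h against 4 h, limma-voom adjusted p = 2.37e-08), where Nr3c1 itself was called in neither comparison. Hsd11b1, which regenerates active glucocorticoid in liver and was named after its values were seen, averaged 473 ± 108 CPM at 4 h, 459 ± 130 CPM at 22 h and 478 ± 73.3 CPM in vehicle livers (SD, n = 8 each; limma-voom adjusted p = 0.893 and 0.676). Among coregulators, Crebbp, the CREB-binding acetyltransferase, rose by 0.42 and Nrip1, a corepressor of nuclear receptors, by 0.61 at 4 h (limma-voom adjusted p = 2.2e-08 and 3.04e-07), and Smarca4, the ATPase of chromatin remodelling, fell by 0.36 at 22 h (limma-voom adjusted p = 2.51e-05). Hsp90ab1, the chaperone that holds the receptor, rose by 0.51 at 22 h (limma-voom adjusted p = 2.79e-06).

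Other genes known as receptor targets in liver moved both ways. Of 24 tested, 12 were higher, 7 lower and 5 not called at 4 h, and 9 higher, 4 lower and 11 not called at 22 h. At 22 h against 4 h, 6 were higher, 11 lower and 7 not called. Of all genes tested, 44.2% were called at 4 h, 36.8% at 22 h and 29.3% at 22 h against 4 h. Among the 5 targets within the 10 genes, only Fkbp5 was called lower than vehicle, at 4 h. That call was lost without any 1 of 5 libraries. Tat, the tyrosine aminotransferase, averaged 5390 ± 1090 CPM at 4 h, 1950 ± 579 CPM at 22 h and 512 ± 162 CPM in vehicle livers (SD, n = 8 each; log2 fold changes 3.42 and 1.92, with limma-voom adjusted p = 2.31e-13 and 9.85e-09). Dusp1, a phosphatase that ends MAP kinase signals, was lower at 22 h than at 4 h, with 11.7 ± 3.41 CPM at 22 h and 67.3 ± 20.6 CPM at 4 h (SD, n = 8 each; -2.53; limma-voom adjusted p = 4.4e-09). Against vehicle livers (19.4 ± 6.73 CPM), Dusp1 was higher at 4 h (1.82; limma-voom adjusted p = 7.22e-08) and lower at 22 h (-0.71; limma-voom adjusted p = 0.0291). Tsc22d1, of the same family as Tsc22d3, fell by 2.04 at 4 h and by 1.20 at 22 h (limma-voom adjusted p = 9.69e-11 and 6.7e-07). Cited2, a coregulator, was higher at 22 h than at 4 h by 1.17 (limma-voom adjusted p = 7.81e-10), as Klf9 was. Unlike Klf9, Cited2 was lower at 4 h than in vehicle livers (-0.83; limma-voom adjusted p = 1.41e-07).

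**Figure D5:**
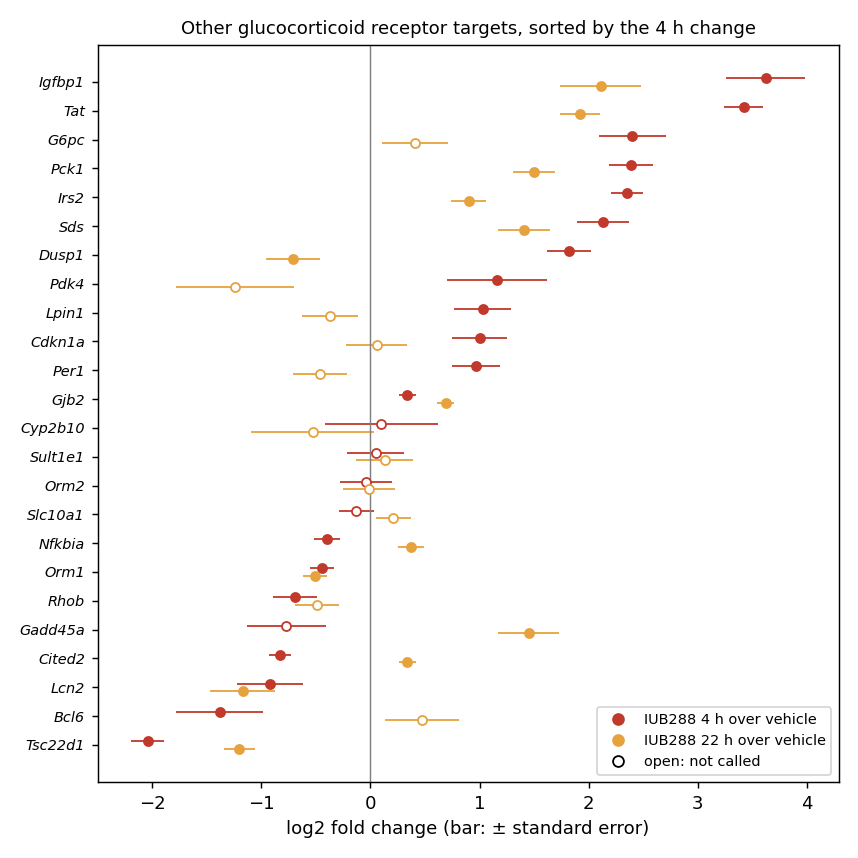
Log2 fold changes with standard errors of the 24 other glucocorticoid receptor targets tested, for IUB288 4 h over vehicle (upper point of each row) and IUB288 22 h over vehicle (lower point), filled where the limma-voom adjusted p was under 0.05. They run from 3.62 for Igfbp1 to -2.04 for Tsc22d1 at 4 h.

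Of 13 paralogues of the 10 genes tested, 2 were higher and 4 lower at 4 h, 6 higher and 5 lower at 22 h, and 3 higher and 2 lower at 22 h against 4 h. The count higher at 22 h was 3 without 22 h replicate 6 or 7 and with the 16 libraries compared alone, and the count lower at 22 h was 3 with no filter on low counts. Sgk3, a kinase close to Sgk1, averaged 48.8 ± 3.01 CPM at 4 h, 28.6 ± 4.32 CPM at 22 h and 28.7 ± 2.92 CPM in vehicle livers (SD, n = 8 each; 0.77 at 4 h; limma-voom adjusted p = 2.58e-08). Sgk2 was higher at 22 h than at 4 h, by 1.06 (limma-voom adjusted p = 6.75e-07), where Sgk1 was lower. Zbtb7a, a zinc finger factor of the Zbtb16 family, rose by 0.49 at 4 h (limma-voom adjusted p = 1.33e-06). Of 11 other Krüppel-like factor genes, 2 were higher and 3 lower at 4 h, 1 higher and 1 lower at 22 h, and 2 higher and 2 lower at 22 h against 4 h. The count higher at 4 h was 4 without vehicle replicate 1 and with sample quality weights, and the count higher at 22 h was 2 without vehicle replicate 3 or 22 h replicate 8. For these relatives the counts stand beside 21.7% of all genes higher and 22.5% lower at 4 h. The shares were 17.6% higher and 19.2% lower at 22 h, and 29.3% of all genes were called at 22 h against 4 h. The counts are not read as results about either list. Klf10, which is induced by TGF-beta, was higher at 22 h than at 4 h (1.35; limma-voom adjusted p = 2.13e-06), as Klf9 was, and lower at 4 h than in vehicle livers (-1.01; limma-voom adjusted p = 7.35e-05). Klf3 rose at 4 h (0.73; limma-voom adjusted p = 7.48e-10) and was lower at 22 h than at 4 h (-0.69; limma-voom adjusted p = 4.4e-09).

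C/EBP factors and the receptor serve the acute phase response together with interleukin 6. Of 22 genes of that response tested, 5 were higher and 10 lower at 4 h, and 8 higher and 6 lower at 22 h. In the direct comparison of 22 h with 4 h, 6 were higher and 1 lower. Among all genes, 21.7% were higher and 22.5% lower at 4 h, and 17.6% higher and 19.2% lower at 22 h. The share of all genes called at 22 h against 4 h was 29.3%. The count lower at 22 h against 4 h ran from 0 to 4 on leaving out single libraries, with 4 without vehicle replicate 1, 3 without 4 h replicate 4 or 22 h replicate 1, and 2 without 4 h replicate 8 or 22 h replicate 4 or 5. It was 0 without any 1 of 14 other libraries, under library totals or median-of-ratios scaling and with either other filter, and 5 with sample quality weights, which also gave 8 higher at 4 h. Stat3, the factor that carries the interleukin 6 signal, rose by 0.53 at 4 h (limma-voom adjusted p = 1.09e-06). Hpx, the heme-binding hemopexin, rose by 0.83 at either time (limma-voom adjusted p = 4.46e-07 and 1.1e-06). The orosomucoid gene Orm3, one of several close copies among which reads may be split, averaged 1.32 ± 0.592 CPM at 4 h, 1.55 ± 0.538 CPM at 22 h and 16.9 ± 4.04 CPM in vehicle livers (SD, n = 8 each; -3.81 and -3.46; limma-voom adjusted p = 3.71e-10 and 1.67e-09). Cp, the copper protein ceruloplasmin, fell by 0.81 at 22 h (limma-voom adjusted p = 3.09e-05).

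Genes of the cAMP response and of the clock also differed between the groups. Of 14 cAMP response genes 10 were higher and none lower at 4 h, 7 higher and 1 lower at 22 h, and 1 higher and 9 lower at 22 h against 4 h. The count higher at 22 h was 4 without vehicle replicate 5 and 10 without vehicle replicate 1. Crem, an early cAMP target, averaged 125 ± 21.6 CPM at 4 h, 27.2 ± 2.91 CPM at 22 h and 22.8 ± 2.02 CPM in vehicle livers (SD, n = 8 each). Of 18 clock genes 7 were higher and 6 lower at 4 h, 5 higher and 6 lower at 22 h, and 5 higher and 9 lower at 22 h against 4 h. The count lower at 22 h was 2 without 22 h replicate 1 and with no filter on low counts. Beside the cAMP and clock counts, 44.2% of all genes were called at 4 h, 36.8% at 22 h and 29.3% at 22 h against 4 h. Arntl, which encodes the clock activator BMAL1, averaged 13.6 ± 3.44 CPM at 4 h, 3.60 ± 1.36 CPM at 22 h and 2.88 ± 1.06 CPM in vehicle livers (SD, n = 8 each; 2.31 at 4 h, limma-voom adjusted p = 1.95e-09). Dbp, a clock output gene, averaged 25.2 ± 4.42 CPM at 4 h, 64.5 ± 6.04 CPM at 22 h and 55.9 ± 11.4 CPM in vehicle livers (SD, n = 8 each; 1.36 at 22 h against 4 h, limma-voom adjusted p = 1.53e-09). Sgk1, Zbtb16, Cebpb and Klf9, the members that differed between 22 h and 4 h, were thus compared between livers whose clock genes differed as well, and the hour and the time since injection cannot be told apart.

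Over all 24 livers the genes most like each member were described by Pearson's r of log2 CPM, which takes in the differences between groups. Sgk1 was closest to Gusb, Rabgap1 and AA986860 (r = 0.93 each, n = 24), the highest values of the 10 genes. Tsc22d3 was closest to Lpin1 and Zfp36 (0.83 each) and Kcnk5 (0.82), and Cebpb to Noct (0.87), Rusc2 and Gm38585 (0.86 each). Klf9 was closest to Gm38897 and Pxmp2 (0.85 each) and Gm16157 (0.84), and Cebpd to Pdha1, Pcolce and Palm2 (0.84 each). Fkbp5 was closest to Nlrp12 (0.86), Inca1 (0.83) and Derl2 (0.82), and Nr3c1 to Wdr11 (0.83), Abca8b (0.78) and Hook3 (0.76). Outside the 10 genes, Mt1 and Mt2 shared Ctsb as a close gene (0.80 and 0.79), beside Adssl1 (0.79) and Sdsl (0.78) for Mt1 and Vldlr (0.80) and Idh2 (0.77) for Mt2. Zbtb16 had Pdcd6 (0.76), St3gal5 (0.75) and Fbxl19 (0.73).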

How the data were processed

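Liver RNA of 24 mice was analysed from a deposited table of gene counts. The submitters' processing notes name cutadapt, GSNAP and the mouse build GRCm38. Versions, the counter of reads and its use of strand are not given in the sources used here. All values in the deposited table were whole numbers of at least 0. Columns were matched to mice by the names in the labels. Its quoted, space-separated layout was not taken as counts by an automated check of units, so count-model tools were not run, and limma-voom, the fallback written into the design, was the main test.

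Genes were kept where enough libraries reached 10 counts and the total reached 15 (11508 of 22355 genes, 99.92% of counts). Counts were scaled by TMM (trims of 30% and 5%), weighted by voom with an offset of 0.5 and fitted in R 4.3.3 with limma 3.58.1 as 3 group means, with 21 residual and 4.08 prior degrees of freedom. P-values were two-sided and adjusted after Benjamini and Hochberg over the 11508 genes, threshold 0.05. The gene test was tried on simulated counts with known changes. Correlations used exact permutation tests (SciPy 1.17.1, two-sided). CPM are given as mean ± SD over 8 mice or as ranges, and livers are counted on the side of a change from the other group's mean log2 CPM. Totals per library ran from 14 to 44.1 M, and the lowest count behind any value of the 10 genes was 38, for Cebpd. Chi-square per degree of freedom was at least 19.3 in each of 84 within-group pairs, so none of them were copies.

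The 10 genes, the gene lists and the tests were chosen with earlier results of these data known. Beside the 10 genes, the text names up to 3 genes per list and comparison, those with the smallest p among called genes with at least 1 CPM in a group, and the 3 genes most correlated with each of the 10. Igfbp1 is named only as the end of a plotted range. List members that are not in the table were not analysed here. Livers with the same replicate number in different groups came from different mice, which the labels number apart. Same-numbered livers deviated together with a correlation over 0.1 in 2 of 24 pairs. Among pairs with other numbers, both in replicates 1 to 4 or both in 5 to 8, it was 5 of 72. Across these runs of replicates it was 11 of 96. Such correlations cannot exclude that same-numbered mice shared a block. Promoter windows are from RefSeq on GRCm38.p6, and coordinates of genes from RefSeq on the same assembly through the Entrez numbers, which matched for all 10. Alternatives were other scalings, filters, weights and blocks, the 16 libraries of a comparison alone, replicates 1 to 4 or 5 to 8 alone, and leaving out each library.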

Additional observations from a re-analysis of the deposited data

Results flagged for a closer look

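Of 30 gene and group combinations checked for 1 liver far from the other 7 on log2 CPM, 3 stood out, with a gap to the nearest liver, divided by the group's range, above Dixon's 95% critical value, where chance gives about 1 in 20. In Nr3c1 at 22 h the lowest liver was replicate 7, with 159 CPM and a ratio of 0.57 on log2 CPM. The same liver was the highest for Zbtb16 at 22 h, with 112 CPM against 28.4 CPM for the next (ratio 0.69 on log2 CPM). In Mt2 the highest vehicle liver was replicate 1, with 105 CPM against 24.1 CPM for the next (ratio 0.56 on log2 CPM).

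In 4 of the 10 genes the change at 22 h differed from the change at 4 h, by the direct limma-voom comparison of the 8 livers at 22 h with the 8 at 4 h. The difference was -1.54 for Sgk1, -0.88 for Zbtb16, 0.35 for Klf9 and -0.85 for Cebpb (limma-voom adjusted p = 3.04e-06, 0.0404, 0.0114 and 0.000226). The Zbtb16 call was lost without any 1 of 13 libraries. Over all genes tested, 29.3% were called in this comparison, and the count is not read as a result about the 10 genes.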

How the results depend on the processing

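Called changes of the 10 genes kept their direction under all alternatives run. The count of members lower at 4 h than in vehicle livers, 1, was 2 with the filter of 1 CPM in 8 libraries, with sample quality weights and with the replicate block, and ran from 0 to 2 on leaving out single libraries. The count lower at 22 h, 1, was 0 when 16 libraries entered the fit and under sample quality weights. The count higher at 4 h, 5, ran from 3 to 6 on leaving out single libraries. With the replicate block, Cebpd at 4 h (-0.70, limma-voom adjusted p = 0.0195), Tsc22d3 at 4 h (0.50, 0.0089) and Tsc22d3 at 22 h against 4 h (-0.55, 0.00844) were called as well. Numbers of genes called over the whole table stayed within 1.5 times under each alternative run for them, which leaves out replicates 1 to 4 or 5 to 8 alone.

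Signs turned only for changes that were not called. Against vehicle at 22 h, Cebpb (-0.07) was 0.12 with quality weights and 0.28 in replicates 5 to 8 alone, Fkbp5 (-0.36) 0.38 in replicates 5 to 8 alone, Nr3c1 (-0.02) 0.02 with no filter and 0.12 in replicates 1 to 4 alone, Tsc22d3 (-0.03) 0.00 with no filter and 0.19 in replicates 5 to 8 alone, and Zbtb16 (0.01) 0.00 with library totals alone, -0.07 with quality weights and -0.36 in replicates 1 to 4 alone. Klf9 at 4 h (0.00) was 0.00 with median-of-ratios factors and 0.10 in replicates 1 to 4 alone. At 22 h against 4 h, Fkbp5 (0.52) was -0.31 and Mt1 (0.07) -0.33 in replicates 1 to 4 alone, and Mt2 (-0.02) was 0.01 with no filter, 0.02 with the filter of 1 CPM, 0.00 with 16 libraries, 0.28 with quality weights and 0.26 in replicates 5 to 8 alone. On leaving out single libraries these ran from -0.16 to 0.04 (Cebpb), -0.05 to 0.01 (Nr3c1), -0.15 to 0.10 (Tsc22d3) and -0.28 to 0.12 (Zbtb16) at 22 h, from -0.04 to 0.05 (Klf9) at 4 h, and from -0.09 to 0.38 (Mt1) and -0.21 to 0.34 (Mt2) at 22 h against 4 h. With library totals alone, r was -0.01 for Fkbp5 with Tsc22d3 and -0.03 for Fkbp5 with Zbtb16 at 22 h, and -0.45 for Nr3c1 with Fkbp5 at 4 h. The cause of these shifts was not tested. edgeR and DESeq2 were not run.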
